A study of Mus musculus with 7 samples.

Results

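The tumour necrosis factor (TNF) superfamily genes described here are the rows of the count table whose symbol begins with Tnfsf or Tnfrsf and a digit, together with Tnf, Lta, Ltb, Fasl, Cd40lg, Fas, Cd40, Ltbr and Eda2r. The rule uses names alone and found 40 of the 34305 rows: 16 ligands and 24 receptors. Of these, 31 passed the filter on low counts (a level near 0.232 CPM in at least 3 of 6 libraries) and were tested, and 9 did not. Levels are given in CPM, counts scaled to a common library depth after normalisation by the trimmed mean of M values (TMM).

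Poly(A) RNA was sequenced from mouse haematopoietic stem and progenitor cells (HSPCs), the mixed blood-forming cells that divide in culture under the cytokines IL-3, IL-6 and SCF (stem cell factor). The groups were 3 libraries of cells transduced to overexpress MN1, an oncogenic transcriptional co-regulator, 3 libraries of cells overexpressing MN1 without its polyglutamine stretch (labelled MN1pQdel, written MN1-dpQ here), and 1 library of untransduced cells (labelled noTD). Transduced cells were sorted, and RNA was taken 7 to 9 days into culture. The labels give no strain, sex or age of the mice, no vector promoter and no day per library, and the untransduced library carries the source name of the transduced ones although its overexpression label is none. No source used here says whether replicates came from separate animals, so p-values measure the spread between these libraries. The comparison of MN1 with MN1-dpQ asks what differs when the polyglutamine stretch is missing, but Mn1 itself stood at 287 to 314 CPM in MN1 against 404 to 728 CPM in MN1-dpQ, and at 33.6 CPM without transduction, so the stretch and the Mn1 level cannot be told apart. The labels do not give the species of the construct, so how much of it the counts of the mouse gene take in is not known.

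Ligands of this superfamily are trimeric membrane proteins, many of which are also shed, and they act by clustering their receptors. Receptors with a cytoplasmic death domain, such as TNF receptor 1 and Fas, can start caspase-driven death, while receptors that bind TRAF adaptor proteins mainly activate NF-kB and kinase pathways, and decoy receptors bind ligand without passing on a signal. In blood-forming tissue the family is known for setting survival of progenitors and granulocytes and for signals between myeloid cells and lymphocytes.

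The RefSeq promoter table (GRCm38.p6) held 35 start sites for 31 of the 40 members, and the first bases after the start lay in sense in a GENCODE transcript for 28 of the 31. The 250 bases before the start are shown for 4 members: Ltb, which was lower in MN1, its neighbour Tnf, which did not pass the test, Fas, a lower death receptor, and Tnfrsf9, which was higher. Capitals mark matches, on either strand, to an NF-kB-type pattern: GGG, any 2 bases, then TTTCC.

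Ltb, chr17:35194257-35194506, plus strand: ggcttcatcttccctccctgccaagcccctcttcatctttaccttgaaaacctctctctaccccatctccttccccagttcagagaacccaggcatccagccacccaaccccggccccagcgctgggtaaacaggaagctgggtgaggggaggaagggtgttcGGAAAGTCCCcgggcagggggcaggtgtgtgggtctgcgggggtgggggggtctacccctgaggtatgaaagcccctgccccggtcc

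Tnf, chr17:35202008-35202257, minus strand: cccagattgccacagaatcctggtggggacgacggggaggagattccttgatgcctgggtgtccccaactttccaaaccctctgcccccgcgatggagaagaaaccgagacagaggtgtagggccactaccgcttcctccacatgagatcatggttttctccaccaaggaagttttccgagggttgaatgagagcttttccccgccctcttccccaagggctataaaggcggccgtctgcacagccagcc

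Fas, chr19:34290409-34290658, plus strand: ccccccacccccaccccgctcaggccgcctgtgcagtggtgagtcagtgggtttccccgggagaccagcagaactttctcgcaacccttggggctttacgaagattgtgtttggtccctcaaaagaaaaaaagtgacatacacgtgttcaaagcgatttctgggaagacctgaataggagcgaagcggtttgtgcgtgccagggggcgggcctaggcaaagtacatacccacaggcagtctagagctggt

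Tnfrsf9, the downstream of its start sites, chr4:150927749-150927998, plus strand: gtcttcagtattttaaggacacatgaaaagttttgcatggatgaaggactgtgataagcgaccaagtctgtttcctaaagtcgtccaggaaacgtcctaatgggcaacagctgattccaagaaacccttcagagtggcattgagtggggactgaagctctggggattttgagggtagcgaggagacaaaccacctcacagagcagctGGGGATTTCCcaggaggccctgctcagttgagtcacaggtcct

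The match in Ltb lies on the minus strand and begins 87 bases before the start, and that in Tnfrsf9 lies on the plus strand 43 bases before it. The Tnf and Fas windows hold no match, nor does the window before the upstream start of Tnfrsf9 (chr4:150919905-150920154), which is not printed. This pattern was held by 1.41% of all 32851 promoters listed, and among members Ltb, Tnfrsf9 and Tnfrsf25 did. The PU.1-type pattern GAGGAAGT was found in 2.44% of all promoters and before Tnfsf18 alone among members. The C/EBP-type pattern TTGCNNAA was found in 9.56% of all promoters and before Tnfrsf23 and Eda2r among members. The patterns do not overlap in these windows, and a match is a description of letters, not of binding.

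Lymphotoxin beta, BAFF and 6 receptors were lower in MN1 than in MN1-dpQ, while 4-1BB was higher. RANK ligand was also called higher, but its gene Tnfsf11 passed the filter on low counts through the MN1 libraries alone. Of 31 tested members, 8 fell and 2 rose in MN1 (edgeR, adjusted by Benjamini-Hochberg over all genes, threshold 0.05), or 32.3%, where 17.2% of all 14808 tested genes were called. By direction, 25.8% of tested members were lower against 11.1% of all genes, and 6.45% were higher against 6.08%. The libraries of the groups did not overlap for 15 tested members, 12 lower and 3 higher in MN1, or 48.4% against 43.6% of all genes (21.7% lower and 21.9% higher). Without Tnfsf11 (RANK ligand), 30% of 30 tested members were called, where 1 rose (3.33%) and 8 fell (26.7%). The median log2 fold change of MN1 over MN1-dpQ was -0.44 over tested members and -0.01 over all tested genes. With single libraries left out the member median ran from -0.62 to -0.12. With the replicate number as a block it was -0.20, and 14 members were lower and 2 higher, or 51.6% against 30.7% of all genes. That fit added Tnfsf8, Tnfsf12, Tnfsf14, Tnfrsf8, Tnfrsf1a, Tnfrsf18 and Tnfrsf13c and lost Tnfrsf9. Without MN1-dpQ replicate 2, 17 members (54.8%) were called against 41.9% of all genes. Without the replicate 2 pair 16 (51.6%) were called against 34.8%. Leaving out MN1 replicate 1, 2 or 3 gave 6, 6 or 5 calls. These were 19.4%, 19.4% or 16.1% of tested members against 4.14%, 4.47% or 3.34% of all genes. There were 5 calls (16.1% against 3.36% of all genes) without MN1-dpQ replicate 1, with 7 (22.6% against 6.19%) without its replicate 3.

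**Figure D1:**
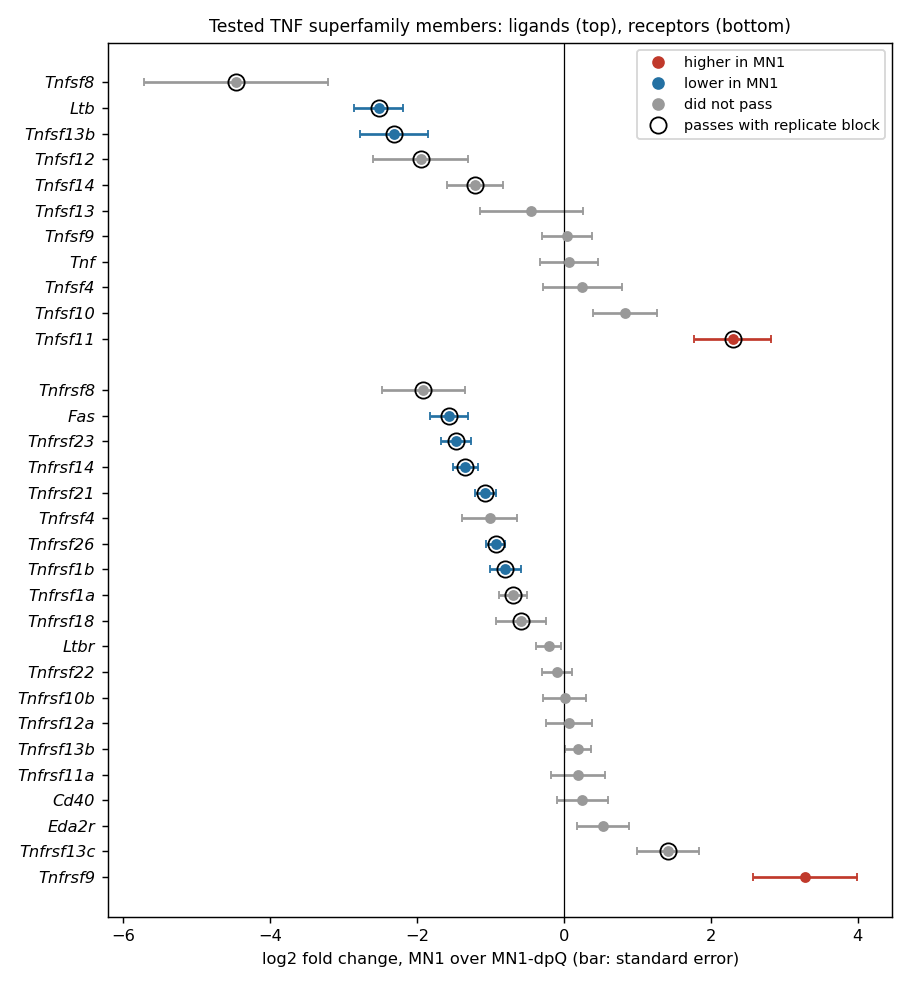
Log2 fold change of MN1 over MN1-dpQ for the 31 tested members, ligands above and receptors below, with the standard error as a bar. Colour gives the call without the block and a ring marks members that pass with the replicate block; Tnfsf8 has the most negative value at -4.46, with the widest bar, and Tnfrsf9 the highest at 3.28.

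Libraries held 38210660 to 67728658 counts. Some marker lists differed between the groups and others overlapped. The summed level of 12 neutrophil markers ran from 4330 to 7932 CPM in MN1 and from 26660 to 36960 CPM in MN1-dpQ. It was 38480 CPM untransduced, and 12 of 12 neutrophil markers were lower in MN1, where 11.1% of all tested genes were lower. The 12 monocyte and macrophage markers summed to 524 to 569 CPM in MN1 against 1011 to 1177 CPM in MN1-dpQ, and 6 were lower. Of 12 HSPC markers 4 were higher in MN1, where 6.08% of all tested genes were higher. The libraries of the groups did not overlap for 6, all higher in MN1, where 21.9% of all tested genes lay higher. The HSPC sums overlapped (1786 to 2387 and 1215 to 2405 CPM). Kit (237 to 431 and 248 to 875 CPM) and Gata2 (270 to 467 and 353 to 1131 CPM), large parts of these sums, overlapped and did not pass. MN1-dpQ replicate 2 stood apart, with 9 eosinophil markers at 235 CPM against 3401 and 3647 CPM in its group and 13.3 to 21.6 CPM in MN1, and 12 mast cell markers at 2850 CPM against 14720 and 17420 CPM in its group and 1498 to 3646 CPM in MN1. The same MN1-dpQ library had the lowest Mn1 level of its group, at 404 CPM against 691 and 728 CPM. In bulk RNA, fewer cells of a type and less RNA per cell cannot be told apart, and the part of these marker levels in the member results was not tested.

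Among ligands, 2 of 11 tested members fell and 1 rose, where 11.1% of all tested genes fell and 6.08% rose. The 1 that rose was Tnfsf11, which passed the filter through MN1 alone. Ltb encodes lymphotoxin beta, which with lymphotoxin alpha engages the lymphotoxin beta receptor. It stood at 3.02, 2.15 and 3.37 CPM in MN1 replicates 1 to 3, at 17.2, 10.3 and 21.1 CPM in MN1-dpQ replicates 1 to 3 and at 31.5 CPM untransduced. Every MN1 library lay below every MN1-dpQ library, and the untransduced library was the highest of all. The means were 2.85 ± 0.628 and 16.2 ± 5.51 CPM (SD, n = 3 each), a difference in log2 units of -2.52 (SE 0.34, edgeR adjusted p = 0.00796). The call held in all 6 leave-one-out fits (-2.74 to -2.28), each of which omits 1 library.

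Tnfsf13b encodes BAFF, a survival factor of B cells made mainly by myeloid cells. It stood at 0.756, 0.903 and 0.552 CPM in MN1, at 4.51, 4.71 and 1.69 CPM in MN1-dpQ and at 4.96 CPM untransduced. The groups did not overlap, and replicate 3 was the lowest library of each. In log2 units the difference was -2.31 (SE 0.46, edgeR adjusted p = 0.0225), called in 2 of 6 leave-one-out fits, those without MN1-dpQ replicate 2 or 3, and up to adjusted p = 0.0900 in the others. Of the BAFF receptors, Tnfrsf13b (TACI) was at 65.9 ± 3.38 CPM in MN1 against 57.4 ± 14.3 CPM in MN1-dpQ (SD, n = 3), and did not pass (log2 fold change 0.19, SE 0.18), while it passed without MN1-dpQ replicate 2 (edgeR adjusted p = 0.0186). Tnfrsf13c (BAFF receptor) was low, at 1.44, 1.60 and 1.49 CPM in MN1 against 0.618, 0.798 and 0.248 CPM in MN1-dpQ. Its groups did not overlap, with a difference in log2 units of 1.42 (SE 0.42) at an edgeR adjusted p of 0.0612 without and 0.0483 with the replicate block. Tnfsf13, which encodes APRIL, another ligand of TACI, did not pass and was highest in MN1-dpQ replicate 2, at 33.4 CPM against 11.6 and 4.70 CPM in its group and 6.19 to 15.4 CPM in MN1.

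Tnfsf11 encodes RANK ligand, the osteoclast-inducing factor, and was a ligand higher in MN1 at a very low level. It had 22, 20 and 43 counts in MN1 and 5, 11 and 3 counts in MN1-dpQ, with 3 counts untransduced. The MN1 libraries were all above the others, and the gene passed the low-count filter through the MN1 libraries alone. In CPM these were 0.537, 0.463 and 0.912 against 0.0813, 0.225 and 0.0745. In log2 units the difference was 2.30 (SE 0.52, edgeR adjusted p = 0.0315), called only without MN1-dpQ replicate 2 among the 6 leave-one-out fits (adjusted p up to 0.127 in the others). Its receptor gene Tnfrsf11a (RANK) ran from 1.67 to 3.18 CPM in MN1 and from 1.47 to 2.80 CPM in MN1-dpQ and did not pass, and its soluble decoy Tnfrsf11b (osteoprotegerin) had 13 counts over all 7 libraries.

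Tnf, the inflammatory cytokine gene, did not pass. It stood at 40.1, 44.7 and 19.5 CPM in MN1, at 21.2, 29.6 and 47.7 CPM in MN1-dpQ and at 38.6 CPM untransduced. The ranges overlapped, and the log2 fold change was 0.07 (SE 0.40, edgeR adjusted p = 0.909). It turned to between -0.16 and -0.04 without MN1 replicate 1 or 2 or MN1-dpQ replicate 1. On chromosome 17, Ltb, Tnf and Lta lie within 10.9 kb (35194439 to 35205351, GRCm38), so a called and an uncalled gene are neighbours. Lta, lymphotoxin alpha, was too low to test, with 3 to 6 counts in the MN1 libraries and 18, 1 and 6 counts in MN1-dpQ.

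Tnfsf8, Tnfsf12 and Tnfsf14, named after their values were seen, lay lower in MN1 on average but did not pass without the block. Tnfsf8 encodes the CD30 ligand. It stood at 0.488, 0.116 and 0.636 CPM in MN1, at 5.94, 0.634 and 20.7 CPM in MN1-dpQ and at 12.1 CPM untransduced, so that MN1-dpQ replicate 2 fell inside the MN1 range. Its log2 fold change was -4.46 (SE 1.26), with an edgeR adjusted p of 0.0536 without and 0.0150 with the replicate block. With 1 library left out it ran from -4.98 without MN1-dpQ replicate 2, where it passed (edgeR adjusted p = 0.00389), to -3.00 without MN1-dpQ replicate 3. Tnfsf12 (TWEAK) showed the same order, at 4.46, 2.13 and 5.56 CPM in MN1 against 18.8, 4.30 and 23.2 CPM in MN1-dpQ. Its log2 fold change was -1.95 (SE 0.65), with adjusted p = 0.0794 without and 0.0189 with the block in edgeR. Tnfsf14 (LIGHT), a ligand of the herpesvirus entry mediator HVEM and of the lymphotoxin beta receptor, ran from 13.0 to 22.4 CPM in MN1 and from 27.8 to 66.3 CPM in MN1-dpQ without overlap (log2 fold change -1.21, SE 0.38, edgeR adjusted p = 0.0695, and 0.0215 with the block). Tnfsf12 and Tnfsf13 share exons with the readthrough gene Tnfsfm13, which the rule does not take in, so their separate counts are uncertain. In MN1-dpQ replicate 2 the low Tnfsf8 and Tnfsf12 values stood beside the low eosinophil and mast cell marker sums given above, and the part of those cells was not tested.

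The remaining ligands did not pass. Tnfsf10 (TRAIL, which binds death receptors) was at 6.22, 4.58 and 8.36 CPM in MN1 against 4.08, 1.70 and 4.87 CPM in MN1-dpQ, a difference in log2 units of 0.83 (SE 0.43). Tnfsf9 (4-1BB ligand) ran from 3.70 to 6.77 CPM in MN1 and from 3.27 to 5.86 CPM in MN1-dpQ. Tnfsf4 (OX40 ligand) ran from 1.16 to 2.82 CPM and from 0.818 to 2.71 CPM. The groups overlapped for all 3 genes.

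**Figure D2:**
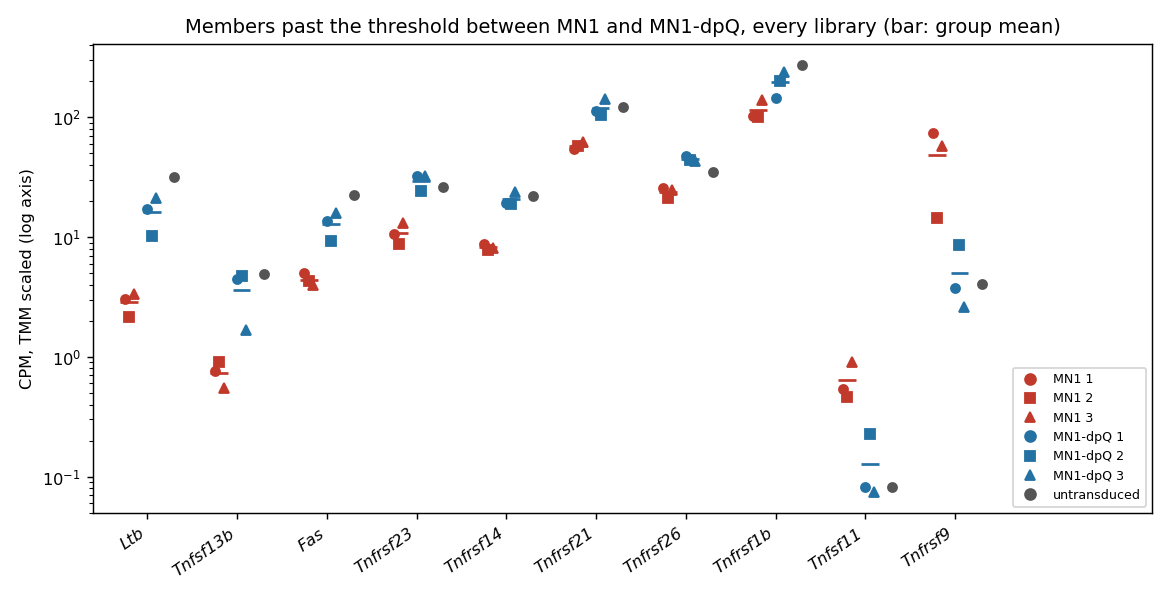
CPM on a log axis in every library for the 10 members that passed the test, ordered by log2 fold change, with a bar at each group mean. MN1 libraries lie below every MN1-dpQ library for the 8 genes on the left and above for Tnfsf11 and Tnfrsf9 on the right.

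Of 4 tested death-domain receptors 2 fell in MN1, where 11.1% of all tested genes fell. Fas, the receptor of Fas ligand, stood at 5.02, 4.26 and 3.97 CPM in MN1, at 13.7, 9.35 and 15.9 CPM in MN1-dpQ and at 22.3 CPM untransduced. The groups did not overlap, and no transduced library reached the untransduced level. In log2 units the difference was -1.57 (SE 0.26, edgeR adjusted p = 0.0131). It lost its call without MN1 replicate 2 or 3 or MN1-dpQ replicate 1 (adjusted p up to 0.0652). Fasl itself had 4 counts over all 7 libraries.

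Tnfrsf21, death receptor 6, stood at 54.8, 57.1 and 62.2 CPM in MN1, at 114, 105 and 143 CPM in MN1-dpQ and at 121 CPM untransduced. The MN1 libraries were close to each other, and the mean of MN1 was 0.482 times that of MN1-dpQ. In log2 units the difference was -1.07 (SE 0.14, edgeR adjusted p = 0.00816), called in all 6 leave-one-out fits. Tnfrsf1a, TNF receptor 1, stood at 54.0, 66.8 and 58.4 CPM in MN1, at 83.0, 125 and 78.8 CPM in MN1-dpQ and at 104 CPM untransduced. Its groups did not overlap, but at a difference in log2 units of -0.69 (SE 0.20) it missed the threshold without the block (edgeR adjusted p = 0.0540) and passed with it (0.0184). Tnfrsf10b, the mouse TRAIL death receptor, was at 9.14 ± 1.15 CPM in MN1 against 9.00 ± 3.50 CPM in MN1-dpQ (SD, n = 3), and did not pass. Tnfrsf25 (death receptor 3) had 29 counts over all 7 libraries.

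Among 13 tested TRAF-binding receptors 2 fell and 1 rose, where 11.1% of all tested genes fell and 6.08% rose. Tnfrsf1b, TNF receptor 2, stood at 102, 101 and 140 CPM in MN1, at 146, 203 and 241 CPM in MN1-dpQ and at 272 CPM untransduced. The highest MN1 library lay just below the lowest MN1-dpQ library. In log2 units the difference was -0.79 (SE 0.22, edgeR adjusted p = 0.0493). The call was lost with library totals or upper quartile scaling (adjusted p = 0.102 and 0.0609), and in 5 of 6 leave-one-out fits, all but the one without MN1-dpQ replicate 2.

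Tnfrsf14 encodes HVEM, the receptor of LIGHT. It stood at 8.80, 7.87 and 8.06 CPM in MN1, at 19.2, 19.0 and 23.9 CPM in MN1-dpQ and at 22.0 CPM untransduced. Spread within groups was small beside the gap between them, with a difference in log2 units of -1.34 (SE 0.17, edgeR adjusted p = 0.00682), and the call held in all 6 leave-one-out fits. Ltbr, which LIGHT and lymphotoxins also engage, was at 46.9, 59.0 and 45.9 CPM in MN1, at 56.7, 69.7 and 47.6 CPM in MN1-dpQ and at 60.0 CPM untransduced. The Ltbr ranges overlapped, and it did not pass (log2 fold change -0.21, SE 0.17, edgeR adjusted p = 0.411). In this axis the ligand gene Ltb and the receptor gene Tnfrsf14 passed, and Tnfsf14 and Ltbr did not.

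Tnfrsf9 encodes 4-1BB (CD137), an activation-induced receptor best known on T cells, and had the highest positive fold change of the members. It stood at 74.7, 14.4 and 57.2 CPM in MN1, at 3.79, 8.59 and 2.58 CPM in MN1-dpQ and at 4.08 CPM untransduced. MN1 replicate 2 was the lowest of its group and MN1-dpQ replicate 2 the highest of its own, and the groups still did not overlap. The means were 48.8 ± 31.0 and 4.99 ± 3.18 CPM (SD, n = 3 each), a difference in log2 units of 3.28 (SE 0.71, edgeR adjusted p = 0.0274). With the replicate block it was 3.24 with adjusted p = 0.0595 in edgeR, and in leave-one-out fits the call held without MN1 replicate 2 or MN1-dpQ replicate 2 and was lost in the other 4 fits (adjusted p up to 0.116). Of 12 T cell markers 7 were tested. Among the defining ones Cd3g had at most 0.0463 CPM, Cd8b1 at most 0.0651 CPM and Cd3e at most 0.110 CPM in any library. Trac ran from 0.122 to 0.318 CPM in MN1 and from 0 to 0.0205 CPM in MN1-dpQ, without overlap. Cd4 ran from 0.139 to 0.467 CPM in MN1 and from 0.0813 to 0.174 CPM in MN1-dpQ, with overlap. Both were too low to test. Cd3d (0.382 to 1.83 CPM in MN1, 1.08 to 3.04 CPM in MN1-dpQ) and Cd8a (0.486 to 0.683 and 0.778 to 0.845 CPM) had negative log2 fold changes, -1.03 and -0.41, and did not pass. Il7r ran from 3.31 to 16.2 CPM over the transduced libraries and did not pass, as Cd5 and Tcf7 did not, while Lck (4.42 to 5.20 CPM in MN1, 0.298 to 1.80 CPM in MN1-dpQ) and Zap70 (1.18 to 1.54 and 0.0409 to 0.124 CPM), rose in MN1. The summed T cell list ran from 14.4 to 25.2 CPM in MN1 and from 7.90 to 14.2 CPM in MN1-dpQ, and its part in the Tnfrsf9 result was not tested. Tnfrsf9 lies inside the span of Camta1 on the opposite strand, with 0 shared exon bases.

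Tnfrsf8 (CD30), named after its values were seen, did not overlap between groups, at 9.90, 4.72 and 9.63 CPM in MN1 against 27.5, 11.1 and 51.6 CPM in MN1-dpQ, and passed with the block only (log2 fold change -1.91, SE 0.57, edgeR adjusted p = 0.0616 without and 0.0186 with it). The untransduced library, at 14.5 CPM, lay within the MN1-dpQ range. Tnfrsf18 (GITR) overlapped, at 10.3 to 19.8 CPM in MN1 against 15.7 to 29.4 CPM in MN1-dpQ. It passed with the block (edgeR adjusted p = 0.242 without and 0.0210 with it), in which replicate 2 was the lowest library of each group. Tnfrsf4 (OX40) was low, at 0.594 to 0.902 CPM in MN1 against 1.12 to 2.25 CPM in MN1-dpQ, and did not pass in either fit. Cd40, the receptor of CD40 ligand on antigen-presenting cells, was at 0.780, 0.880 and 0.615 CPM in MN1, at 0.878, 0.552 and 0.447 CPM in MN1-dpQ and at 0.877 CPM untransduced. The Cd40 groups overlapped, and it did not pass (log2 fold change 0.25, SE 0.35, edgeR adjusted p = 0.624). Tnfrsf12a (Fn14, the TWEAK receptor, 3.73 to 6.25 CPM in MN1) and Eda2r (1.32 to 2.40 CPM in MN1) did not pass either.

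Tnfrsf26, Tnfrsf22 and Tnfrsf23 lie side by side on chromosome 7 (143607659 to 143685872, GRCm38). Tnfrsf22 and Tnfrsf23 encode decoy TRAIL receptors that lack a signalling death domain. Tnfrsf23 stood at 10.5, 8.75 and 13.1 CPM in MN1, at 32.3, 24.2 and 32.2 CPM in MN1-dpQ and at 26.3 CPM untransduced. Tnfrsf26 stood at 25.7, 21.0 and 24.9 CPM in MN1, at 47.8, 43.8 and 43.3 CPM in MN1-dpQ and at 34.8 CPM untransduced. Both fell in MN1 without overlap, by log2 fold changes of -1.47 (SE 0.21) and -0.93 (SE 0.13), at edgeR adjusted p = 0.00918 and 0.00889, and both held in all 6 leave-one-out fits. Tnfrsf22 ran from 11.1 to 13.9 CPM in MN1 and from 11.2 to 16.7 CPM in MN1-dpQ, overlapped and did not pass (log2 fold change -0.09, SE 0.20), with a sign that flipped under library totals (0.10) and under upper quartile scaling. The 3 genes are close copies and can share reads, and the antisense gene E230032D23Rik overlaps exons of Tnfrsf23 and Tnfrsf26, so their separate levels are uncertain.

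The 9 untested members were Fasl, Cd40lg, Lta, Tnfsf15, Tnfsf18, Tnfrsf11b, Tnfrsf17, Tnfrsf19 and Tnfrsf25, with at most 18 counts in any library. Cd40lg (CD40 ligand, a T helper cell gene) had 0 counts in each MN1 library and in the untransduced one and 4, 1 and 1 in MN1-dpQ. Tnfsf18 (GITR ligand) had 2 counts in all. A count of 0 allows up to 3 counts, or 0.0488 to 0.0822 CPM depending on the library. In the edgeR fit without the filter on low counts, 0 of these 9 members passed and 2 had an unadjusted p under 0.05 (lowest adjusted p = 0.152).

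On levels per length, which allow genes to be compared, Tnfrsf1b was the highest member in all 3 groups, at 29.9 CPM per kb of exon in MN1, 51.5 in MN1-dpQ and 71.2 untransduced. In the untransduced library Tnfrsf1a (40.1 CPM per kb), Tnfrsf21 (29.5), Tnfsf14 (26.5), Ltbr (25.5), Tnf (23.5) and Ltb (20.8) followed. In MN1 the order after Tnfrsf1b was Tnfrsf13b (23.2 CPM per kb), Tnfrsf1a (23.0), Ltbr (21.5), Tnf (21.2) and Tnfrsf9 (17.9), and the first 4 of these differed by less than the SD of Tnf. Tnfrsf9 stood at 1.83 CPM per kb in MN1-dpQ and Ltb at 1.88 CPM per kb in MN1. The summed CPM of all members was 542 to 626 in MN1, 773 to 991 in MN1-dpQ and 969 untransduced, without overlap between the transduced groups, and receptors made up most of it (453 to 548, 654 to 792 and 789 CPM).

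**Figure D3:**
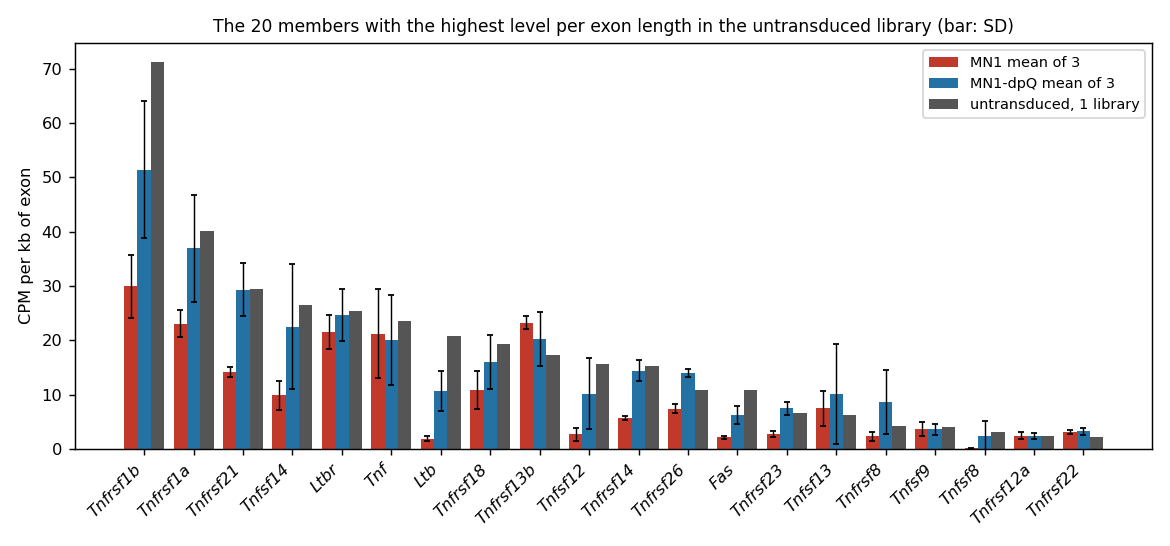
CPM per kb of exon for the 20 tested members highest in the untransduced library, as means of 3 libraries with SD for MN1 and MN1-dpQ and as the single value for the untransduced library. Tnfrsf1b leads in each group, and Ltb stands at 20.8 untransduced, 10.7 in MN1-dpQ and 1.88 in MN1.

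The comparison with the 1 untransduced library was made without a test, and a member counts as past 2-fold where every library of a group lies at least 1 log2 unit to one side. The low-count filter was here applied over all 7 libraries and let in Lta, which was too low for the test between groups. In MN1, 9 of 32 members lay lower (28.1%, against 11.1% of 16216 genes) and 3 higher (9.38% against 7.58%). In MN1-dpQ 0 of 32 did in either direction, where 0.919% of genes lay lower and 0.537% higher. The lower ones in MN1 were Tnfsf8, Ltb, Tnfsf13b, Tnfsf12, Fas, Tnfsf14, Tnfrsf14, Tnfrsf4 and Tnfrsf23, and the higher ones Tnfrsf9, Tnfsf11 and Tnfrsf13c. Tnfsf11 had only 3 counts in the untransduced library. Mean differences in log2 CPM (prior count 2) were -4.97 in MN1 and -1.47 in MN1-dpQ for Tnfsf8, -3.47 and -1.02 for Ltb and -2.33 and -0.81 for Fas. For Tnfrsf9 they were 3.26 and 0.10, and for Tnfsf11 2.38 and 0.33. Both sets of differences share the untransduced library. For all 10 called members MN1-dpQ lay nearer to it than MN1 did, as it did for 95.4% of all called genes.

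**Figure D4:**
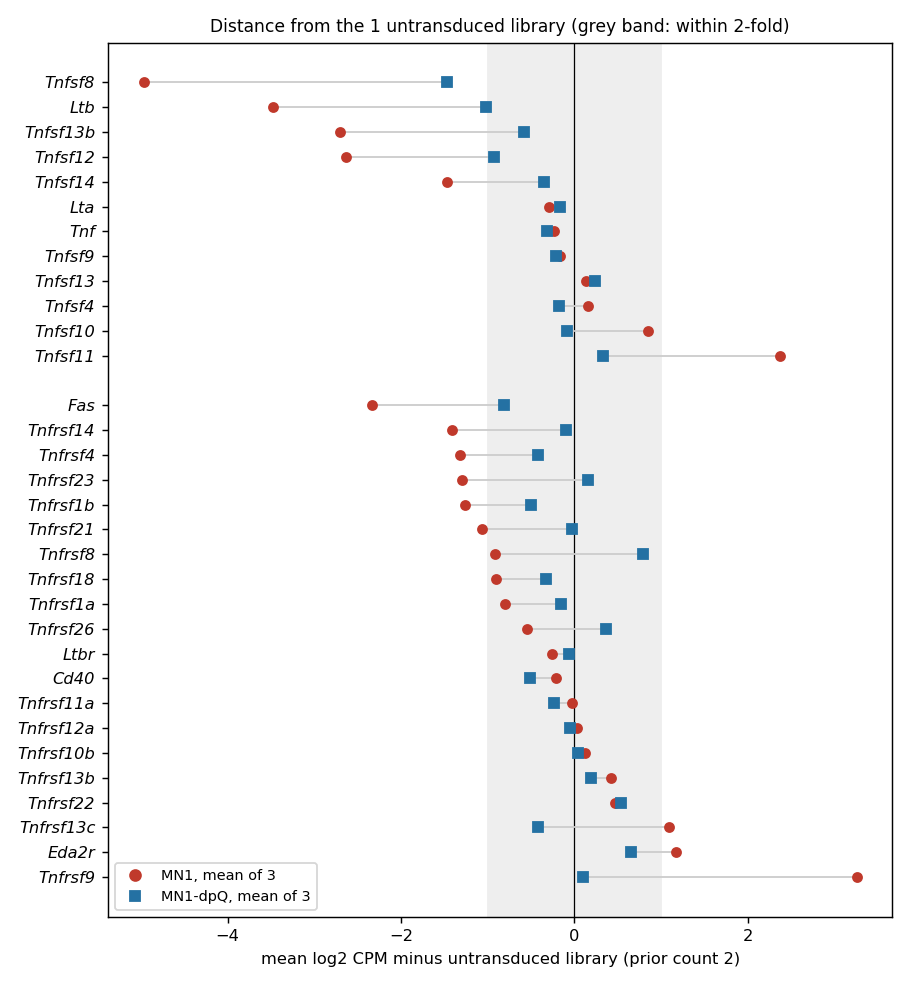
Mean log2 CPM of MN1 (circles) and MN1-dpQ (squares) minus the single untransduced library for the 32 members with enough counts, ligands above and receptors below, with a grey band for differences within 2-fold. MN1-dpQ means leave the band for Tnfsf8 (-1.47) and, narrowly, Ltb (-1.02), while MN1 reaches -4.97 for Tnfsf8 and 3.26 for Tnfrsf9.

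**Figure D5:**
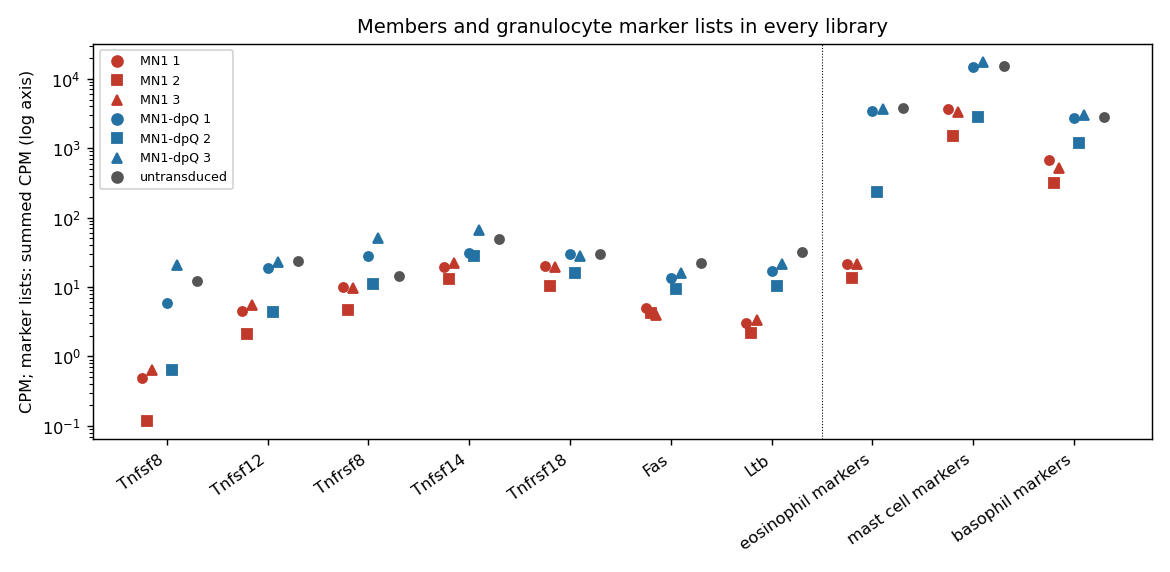
CPM on a log axis in every library for 7 members, and the summed CPM of eosinophil, mast cell and basophil marker lists right of the dotted line. MN1-dpQ replicate 2 (blue square) lies inside the MN1 range for Tnfsf8, Tnfsf12 and Tnfrsf18 and for the mast cell list, and above it for Fas and Ltb.

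Of 57 tested genes in 6 lists (adaptors, NF-kB factors, ubiquitin editors, death effectors, sheddases and superfamily genes outside the rule), 5 rose and 6 fell in MN1, where 17.2% of all genes were called, and 17 of them passed with the replicate block, where 30.7% were. Among 18 adaptor and proximal signalling genes 1 rose and 1 fell, where 6.08% of all tested genes rose and 11.1% fell. Their median log2 fold change was -0.28. Traf4, a TRAF family adaptor, rose from 7.63 ± 1.77 to 23.9 ± 4.67 CPM (SD, n = 3), and Ripk1, the kinase at the branch of survival and death signalling, fell from 98.0 ± 4.73 to 63.6 ± 1.51 CPM (log2 fold changes 1.64, SE 0.24, and -0.63, SE 0.09, edgeR adjusted p = 0.00974 and 0.00975). Traf4 lost the call without MN1-dpQ replicate 1 (adjusted p = 0.0522), and Ripk1 without MN1 replicate 1 or 3 (0.0578 and 0.0545).

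Of 14 NF-kB genes 1 passed, and it fell, where 11.1% of all tested genes fell. Ikbkb, an I-kappa-B kinase, differed by -0.45 (SE 0.12) at an edgeR adjusted p of 0.0494, which was lost under library totals, upper quartile scaling, without the count filter and with all 7 libraries sharing the spread (0.0501 to 0.129). Of 10 ubiquitin editors 1 rose and 2 fell, where 6.08% of all tested genes rose and 11.1% fell. Tnip3, an NF-kB feedback gene, rose from 3.13 ± 0.346 to 10.5 ± 2.80 CPM (SD, n = 3) and lost its call without MN1-dpQ replicate 1 (edgeR adjusted p = 0.0516). Cyld, a deubiquitinase, and Sharpin, of the linear ubiquitin ligase, each fell by 0.46 on the log2 scale, and both calls were lost with library totals (edgeR adjusted p = 0.131 and 0.128), as with upper quartile scaling and without the filter. Of 8 death effectors 0 passed in edgeR without the block and 0 in DESeq2, with 2 at an unadjusted p under 0.05 in each, and 1 passed with the block, Xiap, a caspase inhibitor (edgeR adjusted p = 0.0830 without and 0.0165 with it), named after its value was seen. Ikbkb, Cyld and Sharpin each held their call in 1 of 6 leave-one-out fits, the one without MN1-dpQ replicate 2.

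Of 5 sheddase and regulator genes 2 rose and 1 fell, where 6.08% of all tested genes rose and 11.1% fell. Adam17, the protease that releases TNF and its receptors, stood at 159, 170 and 199 CPM in MN1, at 116, 121 and 126 CPM in MN1-dpQ and at 117 CPM untransduced (log2 fold change 0.53, SE 0.11). Rhbdf2, which carries ADAM17 to the cell surface in immune cells, fell, at 33.7, 29.4 and 37.9 CPM in MN1 against 87.1, 57.3 and 105 CPM in MN1-dpQ (-1.32, SE 0.23). Timp3, an inhibitor of ADAM17, rose, at 282, 134 and 255 CPM in MN1 against 17.3, 58.3 and 6.98 CPM in MN1-dpQ (3.02, SE 0.76). Their edgeR adjusted p were 0.0273, 0.0165 and 0.0406. In leave-one-out fits Adam17 and Timp3 were called only without MN1-dpQ replicate 2, and Rhbdf2 without MN1-dpQ replicate 2 or 3 (adjusted p up to 0.105, 0.151 and 0.0702 in the others). In MN1 the protease and its inhibitor were higher and its trafficking partner lower.

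Of 6 superfamily genes whose symbols fall outside the rule, 2 were tested. Cd27, the receptor of CD70, rose, and Relt, an orphan receptor, fell from 65.9 ± 8.03 to 37.0 ± 4.63 CPM (SD, n = 3; log2 fold change -0.84, SE 0.15, edgeR adjusted p = 0.0168). Cd27 differed by 3.18 (SE 0.66, edgeR adjusted p = 0.0254). Both held without MN1-dpQ replicate 2 or 3 and lost the call in the other 4 leave-one-out fits (adjusted p up to 0.108 and 0.0672). Its ligand gene Cd70 stayed below the filter.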

How the data were processed

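Poly(A) RNA libraries of 7 samples were read from both ends at 150 bases, per the labels' protocols. Values deposited by the authors are estimated counts for each gene symbol, without normalisation. The tools kallisto and DESeq2 and the build GRCm38 are named per the submitters' processing notes. For versions, transcript index and strand setting: not given in the sources used here. Table columns were matched to samples by the sample description, and groups and replicate numbers come from the titles. Of the values, 32.5% were not whole (tolerance 1e-06), and counts were rounded. Genes were filtered with filterByExpr on the transduced groups, scaled by TMM and tested with edgeR 4.0.16 (quasi-likelihood, R 4.3.3), MN1 against MN1-dpQ with group as the only term, Benjamini-Hochberg adjustment over 14808 genes and a threshold of 0.05. Standard errors are the fold change over the root of its F statistic. CPM used TMM over 7 libraries. DESeq2 1.42.0, other scalings, no filter, all 7 libraries in 1 fit, leave-outs and a replicate block were alternatives; leaving out the replicate 2 pair was chosen after seeing the data. On data simulated without pairing, the main fit recovered 26.3% of changes of 1 log2 unit and 73.5% of changes of 2 log2 units. Of its calls there, 1.01% were false. A gene that did not pass can therefore still differ.

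As a check of pairing, gene-wise deviations from each group mean had correlations of 0.368, 0.259 and 0.320 for same-numbered libraries and -0.282 to -0.0602 for the rest. Deviations from a group mean are tied to each other, so the positive and negative correlations are not independent. As no label explains the numbers, only the replicate block took them as pairs. The main fit and its p-values left the pairing out. Replicates of a group differed far beyond sampling noise, with a chi-square per gene of 44.0 to 355. Exon lengths and coordinates come from GENCODE M21 (GRCm38), matched by symbol for all 40 members. Members and gene lists were chosen with earlier results of these data known. Values were given for every member that passed, for Tnf, Tnfrsf1a, Tnfrsf1b, Fas, Fasl, Cd40, Ltb and Ltbr whatever their values, and for up to 4 passing genes of each pathway list or, with none, its most abundant gene, which is not reported here.

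Marker lists of other cells summed in MN1, MN1-dpQ and the untransduced library as follows. Basophil markers gave 312 to 666, 1188 to 3008 and 2810 CPM. B cell markers gave 8.78 to 9.26, 4.97 to 6.43 and 4.44 CPM. NK cell markers gave 29.6 to 38.8, 12.9 to 28.9 and 11.8 CPM. Dendritic cell markers gave 96.6 to 132, 30.7 to 50.3 and 64.2 CPM, and erythroid and megakaryocyte markers 240 to 693, 342 to 956 and 805 CPM. Most of the dendritic cell sum in MN1 was Flt3, a gene also on the HSPC list. Flt3 had 64.4, 111 and 87.4 CPM in the MN1 libraries and 1.29, 7.00 and 0.248 CPM in the MN1-dpQ libraries. Of 7 tested dendritic cell markers Flt3 alone was called higher in MN1, Itgax was called lower and 5 did not pass.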

Additional observations from a re-analysis of the deposited data

How the results depend on the processing

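With DESeq2, 16 members were called (51.6% against 30.0% of all genes), and with the replicate block 16 (51.6% against 30.7%). Leaving out single libraries gave 5 to 17 member calls and 1 to 23 pathway calls, against 10 and 11, while the share of all genes called ran from 3.34% to 41.9%; the replicate block gave 17 pathway calls. Without the replicate 2 pair, chosen after seeing the data, 16 members and 18 pathway genes were called. The cause was not tested. Library totals alone gave 3 higher and 7 lower members, shifted the median log2 fold change of all genes from -0.01 to 0.19 and moved the share of higher calls among all genes from 35.4% to 61.8%; upper quartile scaling gave 48.3%, DESeq2 43.8%. The members past 2-fold from the untransduced library ran from 12 to 14 with single MN1 libraries left out, and from 0 to 1 for MN1-dpQ, where fewer libraries have to meet the limit.

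Among genes that did not pass, signs turned without the replicate 2 pair for Tnf (-0.19), Tnfrsf10b (-0.081), Tnfrsf12a (-0.34), Tnfrsf22 (0.057) and Tnfsf13 (0.41), and for Tnfrsf22 with library totals (0.10) and upper quartile scaling (0.0020). With single libraries left out, log2 fold changes ran from -0.16 to 0.45 for Tnf, -0.13 to 0.38 for Tnfrsf10b, -0.089 to 0.53 for Tnfrsf11a, -0.18 to 0.23 for Tnfrsf12a, -0.21 to 0.094 for Tnfrsf22, -0.88 to 0.58 for Tnfsf13, -0.13 to 0.87 for Tnfsf4 and -0.26 to 0.25 for Tnfsf9. No called member reversed under any alternative run. Ltb, Tnfrsf14, Tnfrsf21, Tnfrsf23 and Tnfrsf26 kept their calls under every alternative. Tnfrsf1b lost its call without the replicate 2 pair (edgeR adjusted p = 0.141). The replicate block changed the calls of 8 members, all named with it. Members below about 0.232 CPM were left out by the filter.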
